A study of Rattus norvegicus with 100 samples.

Results

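The nuclear genes of the respiratory chain and the ATP synthase were followed in uterus and pituitary gland of immature female rats given ethinylestradiol (EE), a synthetic estrogen. The gene set was taken by name alone: array features of a single gene whose symbol starts with Nduf, with Sdh and then a, b, c or d, with Uqcr, with Cox4 to Cox8 or with Atp5, and which had a value on at least 50% of the arrays of a tissue. This gave 82 of the 9030 genes with a value on any array. All 82 were present in uterus and 80 in pituitary. They comprise 33 subunits of complex I, 4 complex I assembly factors, 4 subunits and 4 assembly factors of complex II, 7 subunits of complex III, 14 of complex IV, 15 of the ATP synthase, and Atp5if1, which inhibits it. The arrays carry 88 genes with such names. Ndufb8, Ndufaf7 and Cox6c-ps1 and the striated muscle forms Cox6a2, Cox7a1 and Cox8b were left out because they had a value on 0 to 5 of the 70 uterus arrays and on 0 of the 30 pituitary arrays. A further 7 features of these families carry more than 1 gene and were not used.

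The respiratory chain lies in the inner mitochondrial membrane. Complexes I and II pass electrons from NADH and succinate to ubiquinone, complex III passes them to cytochrome c, and complex IV passes them to oxygen. Proton pumping by complexes I, III and IV drives the ATP synthase. The genes here are those of the nuclear genome, and the subunits encoded by mitochondrial DNA are not among them. In the uterotrophic assay an estrogen makes the immature uterus take up water, grow and divide its cells, and this growth draws on ATP.

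EE and control arrays were paired by sampling time. In uterus there were 5 EE and 5 control arrays at each of 7 times (2, 4, 8, 24, 28, 48 and 72 h), and in pituitary 3 and 3 at each of 5 times (4, 8, 24, 48 and 72 h). The animals are described only as immature females from a guideline uterotrophic assay. The sources used here name no strain, age, dose, route, dosing schedule or vehicle. Nor do they say that each array stands for 1 animal, so the p-values reflect only how far these samples spread, which may be technical. Each value is the deposited linear intensity of 1 gene. A change is the EE mean less the control mean of log2(intensity + 30.4), given ± its standard error. Groups hold n = 5 uterus or n = 3 pituitary arrays. Folds are on the same offset scale, which understates changes, most of all those of dim genes. A gene rose or fell where limma's Benjamini-Hochberg adjusted p over all genes tested at that time was under 0.05. In bulk tissue a change in the share of a cell type cannot be told apart from a change in RNA per cell.

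The arrays matched their tissue labels. The summed intensity of 9 anterior pituitary markers was 19.8 to 114 on uterus arrays and 21912 to 32472 on pituitary arrays, and Prl, Gh1, Cga, Pomc, Pou1f1 and Chga were blank on every uterus array. Known estrogen targets responded in uterus: S100g, a calcium-binding protein gene, rose 7.34-fold at 4 h and 18.4-fold at 72 h, and the growth factor gene Igf1 rose 4.02-fold at 4 h. In pituitary the progesterone receptor gene Pgr rose 1.58-fold at 8 h and 1.47-fold at 72 h, and the prolactin gene Prl passed at no time. Median intensity lay between 94.6 and 108 on uterus arrays and between 103 and 110 on pituitary arrays. The number of arrays limits the precision of every value. The tissues differed in technical measures as well. Between 17 and 18 spike control features had a value on each pituitary array, against 0 or 1 on each uterus array, so level and array handling cannot be told apart between tissues.

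In uterus the number of these genes that rose with EE was greatest at 24 h. At 2 h 1 of 82 measured genes rose and 0 fell (7 had an unadjusted p under 0.05), and the number that rose was 0 without EE array 12, 2 without EE array 7 or 8 and 3 without control array 2. The shares were 4.01% higher and 2.38% lower among all genes tested. At 4 h 10 of 82 rose and 14 fell, fewer than the 23.6% and 34.5% of all genes. At 8 h 44 of 81 (54.3%) rose and 10 fell, with 28.7% and 35.5% of all genes. At 24 h 64 of 82 (78%) rose and 2 fell, with 24.8% and 34.4% of all genes. At 28 h 61 of 82 (74.4%) rose and 3 fell, with 28.4% and 34.4%. At 48 h 53 of 82 (64.6%) rose and 1 fell, with 24.2% and 33%. At 72 h 35 of 81 (43.2%) rose and 6 fell, with 23.4% and 36.8%. In total 70 genes rose and 19 fell at 1 or more times, 32 rose at each of 24, 28, 48 and 72 h, and 60 rose at both 24 and 28 h. For these counts over several times the share of all genes was not computed, so they cannot be set against a background. Cox6b2, Ndufs4 and Uqcr10, named after their values were seen because they were the only 3, passed at no time.

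**Figure D1:**
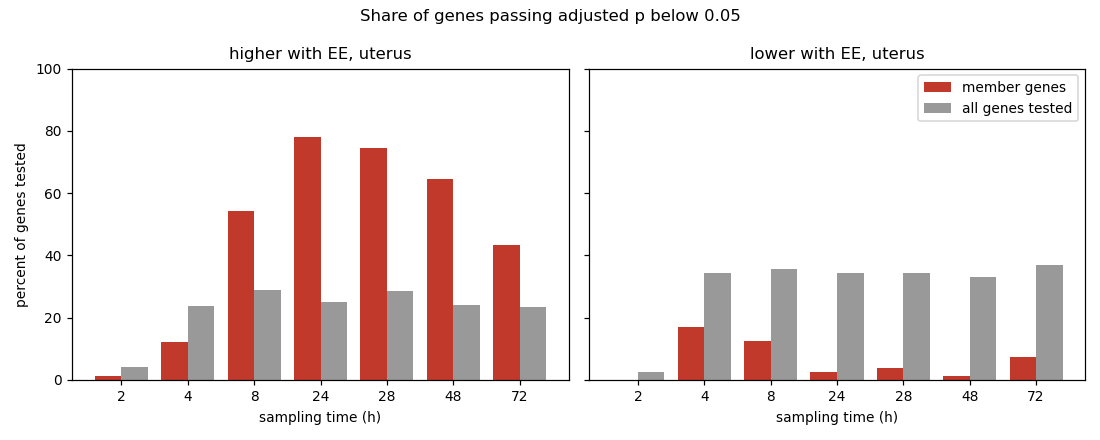
Percent of genes tested that were higher (left) or lower (right) with EE in uterus at each sampling time, for the member genes (red bars) and for all genes tested (grey bars). The red bars exceed the grey ones on the left from 8 h on and reach 78% at 24 h, and they lie below the grey ones on the right at every time.

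The changes were modest in size. The median change of the measured genes was 0.04 at 2 h, -0.02 at 4 h, 0.19 at 8 h, 0.44 at 24 h, 0.38 at 28 h, 0.25 at 48 h and 0.14 at 72 h. Over all genes tested the median was between -0.08 and -0.02 at the same times. On the offset scale 22 genes had a fold of at least 1.5 at 24 h, and only Ndufaf4 and Uqcrq reached a fold of 2 at any time. Among the genes measured at every time, the highest signed change stood at 24 h for 46 genes, at 28 h for 11 and at 8 h for 10. Neither the folds nor these times were counted over all genes tested. How the arrays are scaled bears on the smaller changes. Arrays centred on their medians moved the median of all genes at 72 h from -0.07 to 0.04, and under that scaling 53 genes rose and 6 fell at 72 h. Under quantile normalization 22 rose and 13 fell at 8 h, and 20 rose and 15 fell at 72 h. At 24 h the count was 60 to 68 higher and 2 or 3 lower under every scaling tried.

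**Figure D2:**
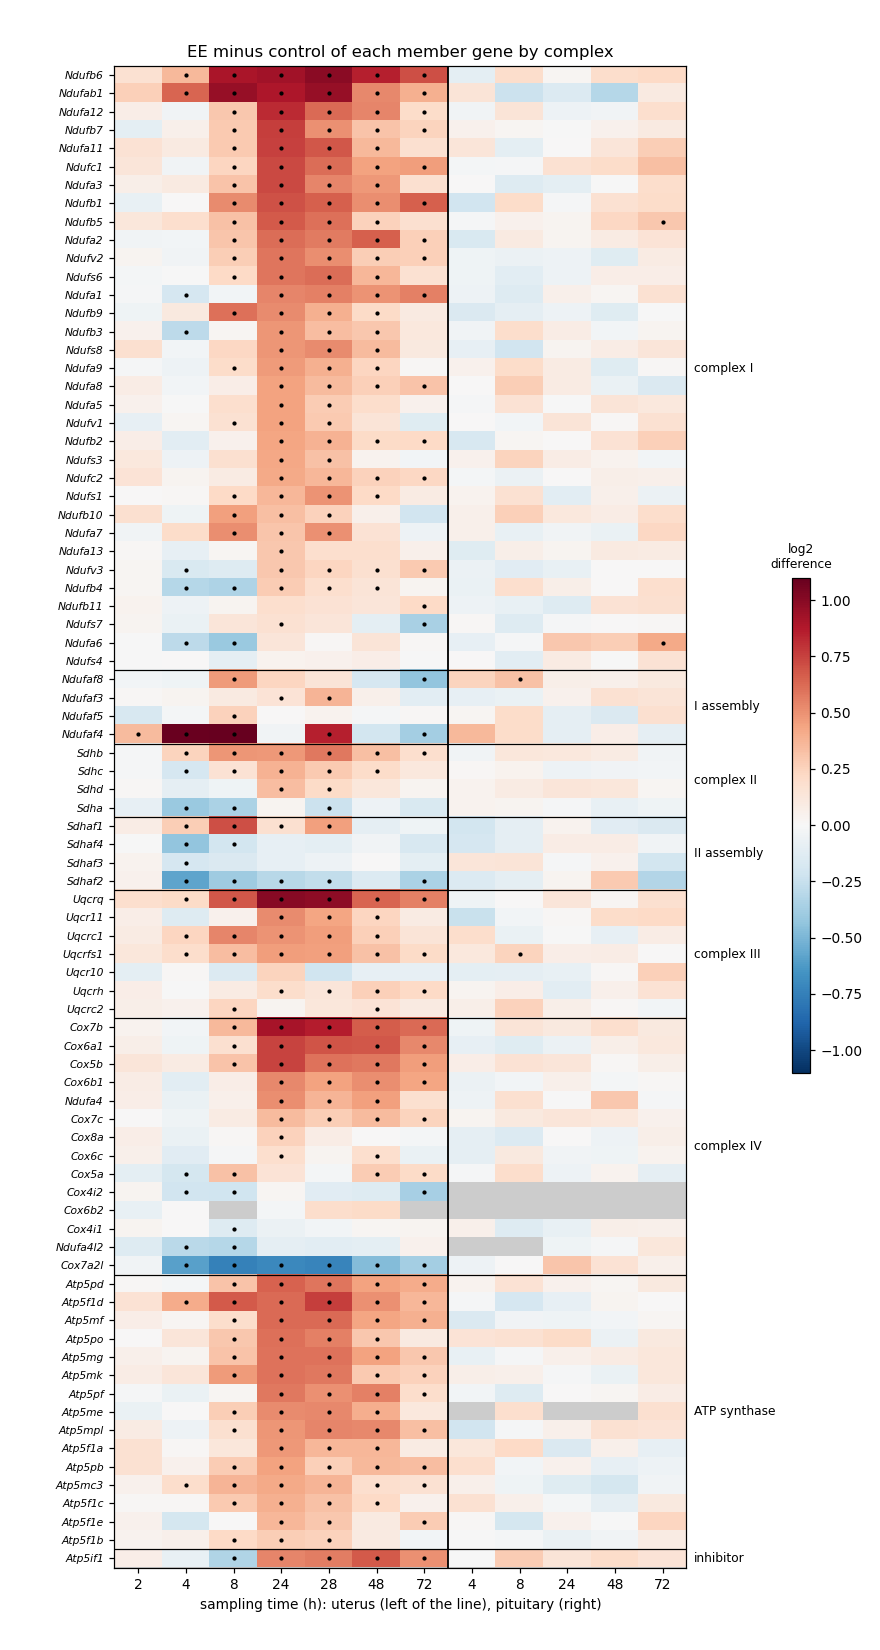
EE minus control on the log2(intensity + offset) scale for each of the 82 genes (rows, by complex) at each sampling time (columns) in uterus and pituitary, with red for higher, blue for lower and grey for not tested. A dot marks an adjusted p under 0.05. Red is spread over nearly all complexes in uterus at 24 and 28 h, and 4 dots stand in the pituitary columns.

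Complex I takes electrons from NADH, and its subunits rose broadly. At 24 h 30 of 33 rose, 0 fell and the median change was 0.47. At 72 h 14 rose and 1 fell. Ndufb6, an accessory subunit of the membrane arm, had control intensities of 178, 182, 191, 204 and 223 at 24 h and EE intensities of 274, 384, 425, 440 and 496. Every EE array lay above every control array. Its change was 0.92 ± 0.12 (1.89-fold, adjusted p = 1.81e-09), and it was still 0.71 ± 0.12 at 72 h. Ndufab1, the mitochondrial acyl carrier protein, which also serves mitochondrial fatty acid synthesis, rose early. At 8 h its control arrays read 222, 222, 226, 227 and 242 and its EE arrays 453, 455, 462, 479 and 505. The change was 0.96 ± 0.10 (1.94-fold, adjusted p = 1.08e-13), after 0.64 ± 0.10 at 4 h.

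The catalytic core of complex I moved with the accessory subunits. All 6 core subunits measured rose at 24 h, with a median of 0.43, and 24 of 27 accessory subunits rose, with a median of 0.49. This grouping was made after the values were seen. Ndufv1, which carries the NADH site, had control intensities of 342, 348, 356, 361 and 370 and EE intensities of 443, 462, 490, 525 and 553 at 24 h. The groups did not overlap, and the change was 0.44 ± 0.07 (adjusted p = 8.44e-07). Ndufs1, the large iron-sulfur subunit, rose by 0.37 ± 0.07 at 24 h and 0.49 ± 0.07 at 28 h. By 72 h the core had spread apart. Ndufs7, another iron-sulfur subunit, read 449, 457, 462, 469 and 471 in controls and 316, 341, 365, 368 and 381 with EE at 72 h, a fall of -0.36 ± 0.06 (adjusted p = 9.35e-07), after a rise of 0.16 ± 0.06 at 24 h. Its controls were also higher at 72 h than at 24 h, as given below, so the change of sign does not reflect its EE level alone. The 24 h call of Ndufs7, and with it the count of 6, was lost without control array 38 (0.12) or 39 (0.14) or EE array 43 (0.13) or 47 (0.12), with only the groups compared (adjusted p = 0.12) and under quantile normalization (0.095, adjusted p = 0.188).

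A few complex I subunits fell at 4 h, a smaller share than among all genes. At that time 2 of 33 rose and 5 fell, against 23.6% and 34.5% of all genes tested. Ndufb4 and Ndufa6, both accessory subunits, fell at 4 and 8 h. Ndufb4 read 471, 497, 508, 518 and 544 in controls and 361, 400, 403, 404 and 444 with EE at 4 h, with no overlap. The change was -0.32 ± 0.06 at 4 h and -0.34 ± 0.06 at 8 h, and the gene rose by 0.28 ± 0.06 at 24 h. Ndufa6 fell by -0.41 ± 0.09 at 8 h, where its groups overlapped, and did not pass at 24 h (0.13 ± 0.09). In all 5 genes fell at 4 h and rose at 24 h: Ndufa1, Ndufb3, Ndufb4, Ndufv3 and Sdhc, named after their values were seen because they were so few. The share of all genes with this course was not computed. The 4 h fall of Ndufa1 did not pass without control array 14 (-0.16) or EE array 19 or 20 (-0.15), nor that of Sdhc without control array 15 (-0.16). Ndufv3, which adjoins the NADH site, has a second, dimmer array feature that also fell at 4 h (-0.39, adjusted p = 2.1e-05). It did not follow the first later, since the brighter one rose by 0.30 at 24 h and the dimmer one fell by -0.18 (adjusted p = 0.0436). At 72 h the brighter one rose by 0.28 and the dimmer one fell by -0.27 (adjusted p = 0.00236), and the dimmer one did not pass at 28 or 48 h.

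The complex I assembly factors followed no common course. Ndufaf4, which has also been described as a hormone-regulated protein associated with proliferation, had the earliest and largest response of the set. At 2 h its control arrays read 51.4, 52.7, 60.0, 60.9 and 64.2 and its EE arrays 69.8, 71.8, 80.2, 87.9 and 104. The change was 0.35 ± 0.09 (adjusted p = 0.0109), and it no longer passed without EE array 12 (0.29, adjusted p = 0.0811). At 4 h the controls read 44.9, 48.6, 49.7, 50 and 51 and the EE arrays 126, 131, 135, 138 and 164. The lowest EE array was above the highest control by more than their whole spread, and the change was 1.09 ± 0.09 (2.13-fold, adjusted p = 1.1e-15).

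The response of Ndufaf4 came and went. At 24 h its controls read 42.2, 50.3, 52.6, 59.1 and 62.8 and its EE arrays 41.9, 44.8, 51.2, 57.4 and 59.4. The groups overlapped throughout (-0.04 ± 0.09, adjusted p = 0.715). At 28 h the controls read 35.2, 35.7, 46.9, 52.1 and 58.5 and the EE arrays 89.4, 97.7, 104, 106 and 140, again with no overlap (0.86 ± 0.09, adjusted p = 4.85e-12). At 72 h the gene fell by -0.38 ± 0.09 (adjusted p = 4.31e-04). The difference of its EE effects between 28 and 24 h was 0.90 ± 0.13 (adjusted p = 9.66e-07), and Ndufaf4 was the only one of 82 genes to pass that test, against 8.26% of all genes tested. This contrast was chosen after the values were seen, and a second gene passed without control array 38 or 53 or EE array 43, 47 or 58, and 1 passed in the other direction without control array 42. Of the other assembly factors, Ndufaf8 rose by 0.47 ± 0.11 at 8 h and fell by -0.43 ± 0.11 at 72 h, and Ndufaf3 rose by 0.37 ± 0.07 at 28 h.

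**Figure D3:**
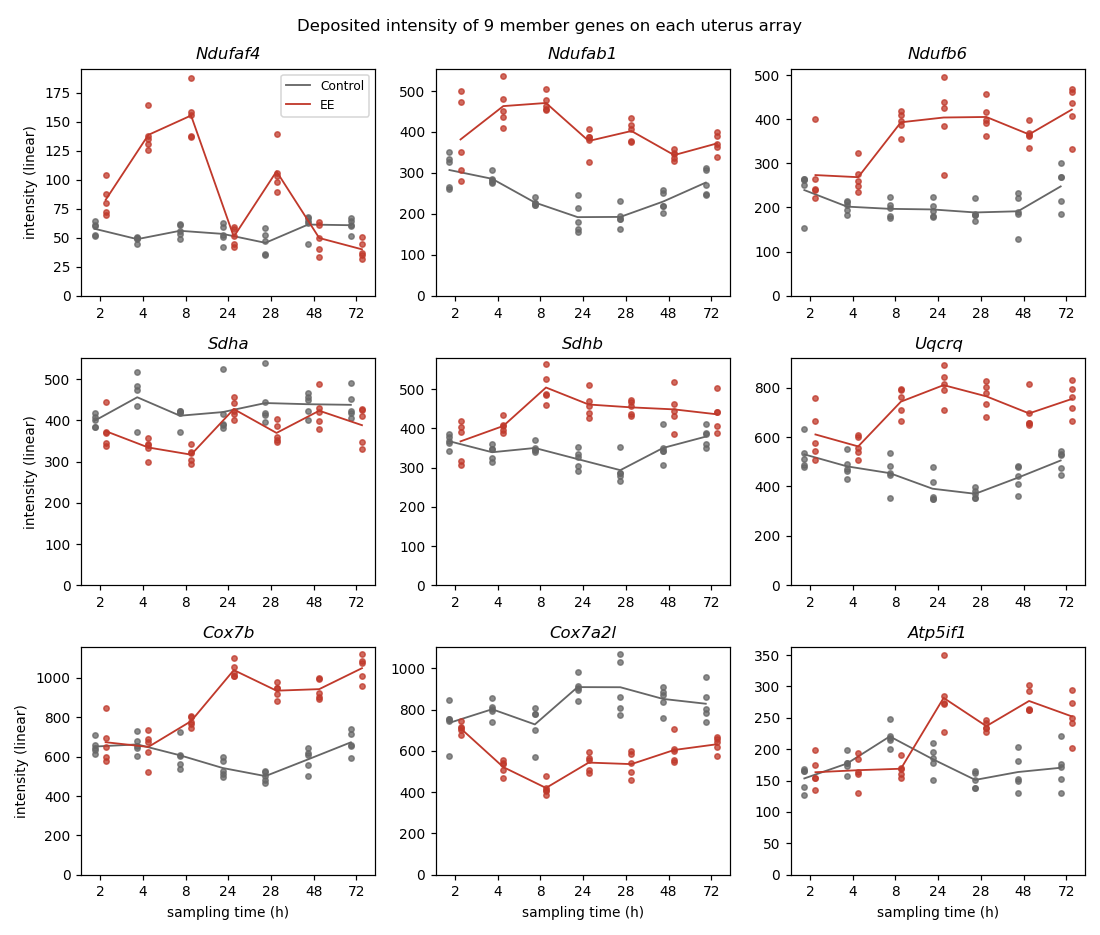
Deposited linear intensity of 9 genes on each of the 70 uterus arrays by sampling time, with control arrays in grey and EE arrays in red, and lines through the group means. Ndufaf4 is high with EE at 4, 8 and 28 h and at the control level at 24 h, Cox7a2l is low with EE from 4 h on, and Atp5if1 crosses from below to above its controls between 8 and 24 h.

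Complex II oxidises succinate and belongs to the citric acid cycle as well. Its catalytic subunits moved apart. Sdha, the flavoprotein, read 371, 435, 474, 483 and 518 in controls and 298, 333, 341, 342 and 357 with EE at 4 h, with no overlap. It fell by -0.41 ± 0.08 at 4 h (adjusted p = 6.16e-06) and by -0.35 ± 0.08 at 8 h, and did not pass at 24 h (0.03 ± 0.08). Sdha was lower again at 28 h (-0.23), a call lost when 1 of the arrays was left out (-0.17, adjusted p = 0.0597). Sdhb, the iron-sulfur subunit, read 340, 344, 346, 349 and 371 in controls and 460, 484, 486, 525 and 564 with EE at 8 h. It rose by 0.24 ± 0.07 at 4 h, 0.49 ± 0.07 at 8 h and 0.58 ± 0.07 at 28 h. The membrane anchors Sdhc and Sdhd rose by 0.38 ± 0.07 and 0.34 ± 0.06 at 24 h. A second array feature of Sdhd gave 0.50 ± 0.08 at 24 h. This feature also rose at 48 h (0.32, adjusted p = 2.35e-04) and 72 h (0.27, adjusted p = 0.00183). The first feature did not pass at those times (0.12 and 0.03).

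The assembly factors of complex II moved apart as well. Sdhaf1, which helps insert the iron-sulfur clusters of Sdhb, read 109, 115, 117, 119 and 124 in controls and 199, 199, 213, 214 and 227 with EE at 8 h. It rose by 0.71 ± 0.07 at 8 h (1.63-fold, adjusted p = 3.21e-14) and by 0.45 ± 0.07 at 28 h. Sdhaf2, which attaches the flavin of Sdha, read 110, 110, 111, 123 and 146 in controls and 55.7, 67.6, 70.6, 76.7 and 81.4 with EE at 4 h. It fell by -0.58 ± 0.08 at 4 h (adjusted p = 1.89e-08) and was lower at 8, 24, 28 and 72 h too. Sdhaf4, also a factor for Sdha, fell by -0.43 ± 0.08 at 4 h.

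Complex III passes electrons from ubiquinol to cytochrome c. At 24 h 5 of 7 subunits rose and 0 fell. Uqcrq, a small subunit, had control intensities of 348, 351, 359, 417 and 480 and EE intensities of 708, 792, 816, 843 and 893 at 24 h. The groups lay far apart, and the change of 1.0 ± 0.09 (2.00-fold, adjusted p = 6.73e-15) was the largest in the set at that time. The iron-sulfur subunit Uqcrfs1 rose by 0.46 ± 0.06 at 24 h. The core proteins differed in course, since Uqcrc1 rose by 0.54 ± 0.07 at 8 h and 0.49 ± 0.07 at 24 h, while Uqcrc2 rose by 0.24 ± 0.06 at 8 h (0.028 under quantile normalization, adjusted p = 0.702) and did not pass at 24 h (0.03 ± 0.06).

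Complex IV reduces oxygen to water, and several of its nuclear subunits exist as paired forms. At 24 h 8 of 14 genes rose and 1 fell, with a median of 0.22. Cox7b read 496, 512, 530, 579 and 597 in controls and 1009, 1011, 1024, 1056 and 1101 with EE at 24 h, with no overlap. Its change was 0.90 ± 0.07 (1.87-fold, adjusted p = 1.89e-16), and it remained 0.62 ± 0.07 at 72 h. Cox6a1, the form of subunit 6a found outside striated muscle, read 523, 543, 569, 630 and 631 in controls and 939, 967, 970, 986 and 1090 with EE (0.75 ± 0.07, adjusted p = 2.66e-15). Cox5b rose by 0.74 ± 0.06 and Ndufa4, now counted with complex IV, by 0.51 ± 0.08 at 24 h. Cox8a rose by 0.25 ± 0.07 at 24 h only, and not under quantile normalization (0.096, adjusted p = 0.25). The single-gene feature of Cox5a was dim, and it rose by 0.32 ± 0.07 at 8 h.

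Not all of complex IV rose. Cox4i1, the widespread form of the regulatory subunit 4, read 1354, 1414, 1444, 1545 and 1601 in controls and 1326, 1399, 1402, 1456 and 1458 with EE at 24 h. These ranges overlapped (-0.06 ± 0.05, adjusted p = 0.345), and the gene passed only at 8 h, with -0.14 ± 0.05, a call lost with arrays centred on their medians (-0.08, adjusted p = 0.245), with only the groups compared, and without control array 28 (-0.11) or EE array 33 or 34 (-0.12). Cox4i2, the form linked to low oxygen, fell by -0.22 ± 0.07 at 8 h and -0.36 ± 0.07 at 72 h. Ndufa4l2, a hypoxia-inducible relative of Ndufa4, fell by -0.31 ± 0.11 at 8 h, a call lost without control array 27 (-0.26, adjusted p = 0.0546) and under median centring (adjusted p = 0.053).

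Cox7a2l was the only gene of the set that fell at every time from 4 to 72 h. Its protein, also called SCAF1 or COX7RP, links complexes III and IV into supercomplexes, and in human breast cancer cells it was described as a product of an estrogen-induced gene. At 8 h its controls read 570, 702, 778, 780 and 810 and its EE arrays 388, 406, 411, 420 and 476. Every EE array was below every control, a fall of -0.74 ± 0.08 (1.67-fold lower, adjusted p = 4.81e-12). At 72 h the controls read 738, 785, 803, 858 and 957 and the EE arrays 577, 618, 642, 657 and 665, still apart (-0.37 ± 0.08, adjusted p = 9.75e-05).

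The ATP synthase was the most uniform of the complexes. All 15 subunits rose at 24 and at 28 h, 13 did at 48 h and 10 at 72 h, and 0 fell at any time. Atp5f1d, the delta subunit of the F1 part, rose by 0.41 ± 0.08 at 4 h, when Atp5mc3 also passed (0.19 ± 0.05). At 28 h it read 393, 400, 405, 444 and 469 in controls and 697, 713, 748, 756 and 769 with EE, with no overlap (0.76 ± 0.08, 1.70-fold, adjusted p = 2.13e-12). Atp5f1b, the catalytic beta subunit, read 1530, 1547, 1566, 1601 and 1602 in controls and 1649, 1844, 1940, 1998 and 2074 with EE at 24 h (0.27 ± 0.06, adjusted p = 5.51e-05), and Atp5f1a rose by 0.48 ± 0.10. The 5 F1 subunits had a median of 0.39 at 24 h and the 10 subunits of the membrane part and stalk 0.59, a grouping made after the values were seen, and the difference was not tested. Atp5pf, a stalk subunit, rose by 0.58 ± 0.07, and Atp5mc3, which encodes the proton-carrying c subunit, by 0.42 ± 0.05 at 24 h.

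Atp5if1 encodes the protein that holds back ATP hydrolysis by the synthase, and it changed sign. At 8 h its controls read 200, 214, 219, 221 and 248 and its EE arrays 155, 161, 168, 171 and 190, a fall of -0.33 ± 0.10 (adjusted p = 0.00205). At 24 h its controls read 151, 178, 186, 196 and 210 and its EE arrays 228, 272, 274, 284 and 351, a rise of 0.53 ± 0.10 (adjusted p = 2.76e-06). The groups did not overlap at either time, and it stayed higher, with 0.67 ± 0.10 at 48 h.

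The EE effect differed among the 7 uterus times for 70 of 81 genes by a moderated F test, where 81.6% of all genes tested passed too. The smallest adjusted p belonged to Ndufaf4 (F = 44.4, adjusted p = 3.57e-19), Cox7b (F = 26.4) and Cox6a1 (F = 26.2), followed by Ndufa1, Atp5pf and Sdhaf1. Ndufa1, a subunit of the membrane arm of complex I, rose by 0.54 ± 0.07 at 24 h and 0.55 ± 0.07 at 72 h.

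The control groups changed over time too. Control levels differed among times for 53 of 82 genes in uterus, against 32.6% of all genes tested. Relative to the mean of the control groups, the median level of the 79 genes with a value on every uterus array was 0.06 ± 0.05 (SD, n = 5) in controls at 2 h, -0.07 ± 0.07 at 24 h, -0.13 ± 0.04 at 28 h and 0.13 ± 0.06 at 72 h. With EE it was 0.36 ± 0.06 at 24 h, 0.27 ± 0.05 at 28 h, 0.25 ± 0.05 at 48 h and 0.27 ± 0.07 at 72 h. The control arrays at 24 h (-0.16 to 0.03) all lay below those at 72 h (0.07 to 0.21).

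Tested directly, 41 of 82 genes were higher and 1 lower in controls at 72 h than in controls at 24 h, against 6.83% and 5.29% of all genes. This contrast and the next were chosen after the values were seen. Ndufs7 differed by 0.43 ± 0.06 (adjusted p = 3.42e-06), Ndufa3, a small complex I subunit, by 0.57 ± 0.10, and Uqcr11, of complex III, by 0.35 ± 0.07. Uqcrc2 was the gene that was lower. The count of 41 was 25 without control array 38 or 76 and 27 without control array 39 or 73. Between the EE groups at the same times 2 of 81 genes were higher at 72 h (Ndufa1 and Cox7a2l) and 15 lower, against 16.3% and 23.3% of all genes, and the split was 5 and 5 with arrays centred on their medians and 0 and 28 under quantile normalization. The number of genes higher without a single EE array was 1 (without array 47, 79, 81 or 84) to 4 (without array 83). Ndufv1 was lower at 72 h than at 24 h with EE by -0.37 ± 0.07.

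**Figure D4:**
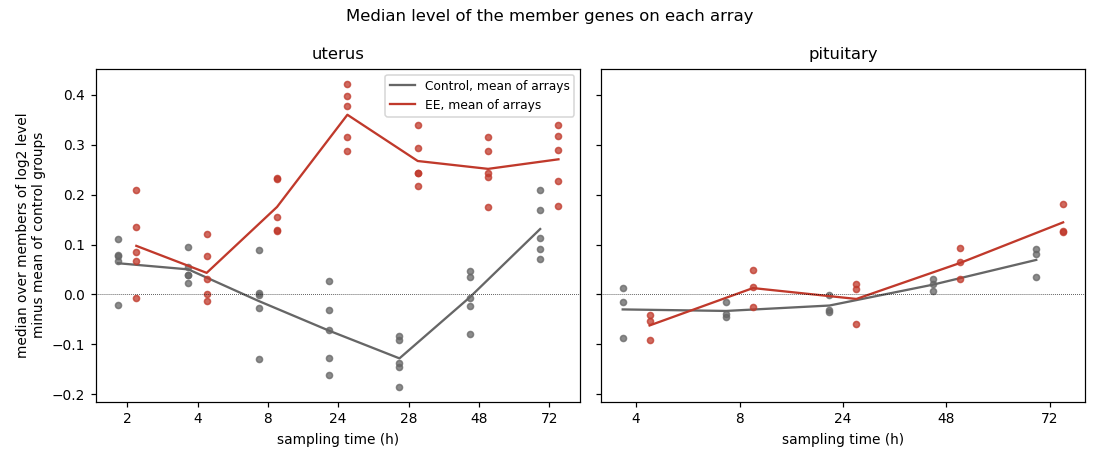
Median log2 level of the member genes on each array, relative to the mean of the control groups of its tissue, by sampling time in uterus (left, 79 genes) and pituitary (right, 77 genes), with control arrays in grey, EE arrays in red and lines through group means. In uterus the red points lie above the grey ones at 8, 24, 28 and 48 h, and the grey points rise from 28 to 72 h. In pituitary the red points lie above the grey ones at 72 h.

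In pituitary few of these genes passed. At 4, 24 and 48 h 0 of 78, 79 and 79 genes passed by limma (7, 2 and 7 had an unadjusted p under 0.05), where 1.49%, 0.0875% and 0.321% of all genes passed. At 8 h 2 of 79 rose and 0 fell, against 3.56% of all genes, and these were Uqcrfs1 (0.24 ± 0.07, adjusted p = 0.0473) and Ndufaf8 (0.32 ± 0.09, adjusted p = 0.0453). Neither count held up to single arrays: at 8 h 0 genes rose without control array 26, 28 or 30 or EE array 32 or 34, and 4 rose and 3 fell without EE array 33. At 72 h 2 of 80 rose, against 2.72% of all genes. Of the 80 changes 62 were above 0, with a median of 0.09 (0.05 under quantile normalization) against -0.007 over all genes. The 77 genes with a value on every pituitary array had a median level of 0.13 to 0.18 on EE arrays. It was 0.03 to 0.09 on control arrays, relative to the mean of the control groups, and this shift of the set was not tested. Ndufa6 read 357, 370 and 424 in controls and 495, 526 and 545 with EE (0.42 ± 0.10, adjusted p = 0.0223). Ndufb5, an accessory subunit of complex I, read 393, 409 and 429 in controls and 473, 501 and 561 with EE (0.30 ± 0.07, adjusted p = 0.0172). Neither pair of groups overlapped, but the count at 72 h was 0 without control array 75 or EE array 81, 1 without control array 73 or EE array 82, and 0 under quantile normalization. Across pituitary times the EE effect differed for 0 of 78 genes by the F test (9 had an unadjusted p under 0.05), against 1.1% of all genes. Pituitary control groups differed among times for 1 of 78, Atp5if1 (F = 6.76, adjusted p = 0.0455), against 1.61%, and for 0 without any of control arrays 16, 17, 18, 38, 40, 42, 61, 64, 66, 73, 75 and 76, or with arrays centred on their medians.

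The EE effect was compared between tissues at the shared times in a fit of all 100 arrays. At 4 h it was higher in uterus for 5 and lower for 3 of 78 genes, against 15.2% and 18.6% of all genes. At 8 h it was higher for 21 and lower for 5 of 79, against 22.5% and 25.5%. At 24 h it was higher for 50 and lower for 1 of 79, against 17.8% and 22.3%. At 48 h it was higher for 29 and lower for 2 of 79, against 15% and 21.4%. At 72 h it was higher for 11 and lower for 5 of 80, against 14.5% and 24.1%, and this split was 25 and 1 with arrays centred on their medians and 5 and 9 under quantile normalization. At 8 h quantile normalization gave 10 and 8, and at 48 h it gave 12 higher.

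By gene the tissue difference at 24 h was 0.81 ± 0.10 for Cox6a1 (adjusted p = 2.58e-10), 0.80 ± 0.12 for Cox7b, 0.88 ± 0.13 for Ndufa12, 0.87 ± 0.14 for Uqcrq and 1.04 ± 0.17 for Ndufab1. The gene with a lower effect in uterus was Cox7a2l (-1.02 ± 0.15, adjusted p = 1.32e-07). Its pituitary arrays at 24 h read 617, 660 and 868 in controls and 687, 962 and 1031 with EE, and the groups overlapped (0.30 ± 0.15, adjusted p = 0.876). Cox7b read 1111, 1166 and 1296 in pituitary controls and 1221, 1289 and 1339 with EE at 24 h, and these overlapped too (adjusted p = 0.964). At 8 h the tissue difference was 0.81 ± 0.12 for Sdhaf1 and 0.90 ± 0.15 for Ndufaf4, and at 72 h Ndufa8, of complex I, differed by 0.47 ± 0.11.

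Without EE the tissues differed in most genes of the set, as in most genes tested. Over the control arrays of the 5 shared times 32 of 78 genes were higher and 41 lower in uterus than in pituitary, against 38.9% and 47.6% of all genes tested. The genes lower in uterus included Atp5if1 (-1.06 ± 0.05), Cox7b (-0.97 ± 0.04), Ndufc2, of complex I (-0.97 ± 0.03, adjusted p = 2.22e-43), Ndufa1 (-0.90 ± 0.03) and Sdhaf1 (-0.82 ± 0.04). Uqcrc1 was higher in uterus (0.87 ± 0.04). All of these genes, Uqcrc1 included, were among the 61 of 82 that rose in uterus with EE at 28 h. The same uterus control arrays enter both comparisons, so they are not independent, and a link between them was not tested. As the sets of arrays also differed in their spike controls, tissue and array handling cannot be told apart here.

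**Figure D5:**
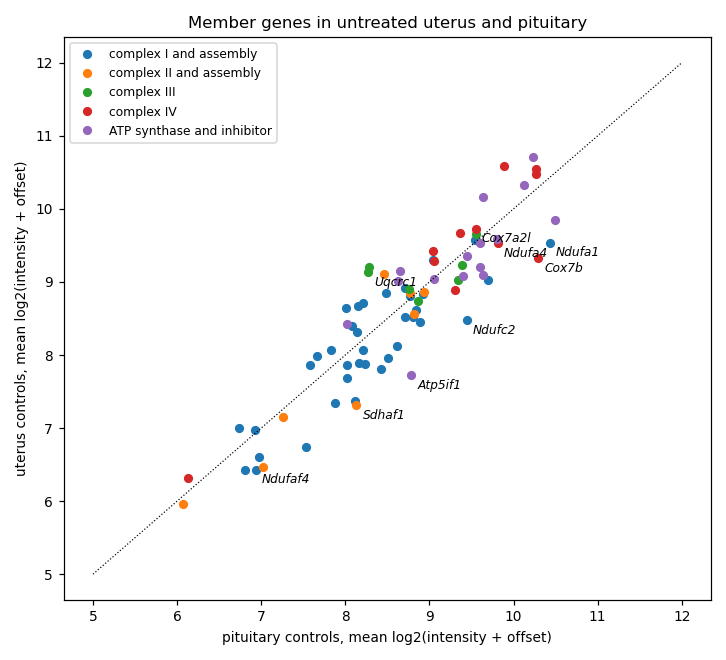
Mean log2(intensity + offset) of 78 member genes in pituitary controls (horizontal axis) and uterus controls (vertical axis) over the 5 shared times, coloured by complex, with a dotted line of equal level. Atp5if1, Cox7b, Ndufc2, Ndufa1 and Sdhaf1 lie below the line, and Uqcrc1 lies above it.

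Other genes that serve the chain were counted from lists written down by function, for which the shares of all genes tested at 24 h, 24.8% higher and 34.4% lower, are the background. Of genes for electron carriers, coenzyme Q and the exchange of ADP, ATP and phosphate, 14 of 21 measured rose and 0 fell in uterus at 24 h, with a median of 0.41. Among them were the ADP/ATP carriers Slc25a5 (0.96 ± 0.07) and Slc25a4 (0.49 ± 0.05), the phosphate carrier Slc25a3 (0.41 ± 0.05) and Higd1a, a supercomplex-associated protein (1.42 ± 0.11). Of pyruvate dehydrogenase and citric acid cycle genes 12 of 19 rose and 1 fell (median 0.21), with malate dehydrogenase Mdh2 at 0.87 ± 0.08 and the isocitrate dehydrogenase subunit Idh3g at 0.54 ± 0.07. At 8 h Mdh2 rose by 1.11 ± 0.08, and the NADP-dependent Idh2 fell by -0.89 ± 0.08. Assembly factors with other names were mixed, as 8 of 23 rose and 3 fell at 24 h. Uqcc2, a complex III factor, rose by 0.83 ± 0.10, and Surf1, a complex IV factor, and Oxa1l, an inner membrane insertase, fell by -0.57 ± 0.09 and -0.41 ± 0.08.

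Of the regulators of mitochondrial biogenesis only 9 of 21 listed were on the arrays. At 8 h 2 of 8 measured rose and 1 fell (median 0.12), against 28.7% and 35.5% of all genes tested. Of 7 measured at 24 h 0 rose and 2 fell (Sirt3 by -0.30 ± 0.07 and Gabpb1 by -0.21 ± 0.07). At 72 h 0 of 6 rose and 4 fell, against 23.4% and 36.8% of all genes tested. The mitochondrial transcription factor gene Tfam was among those that fell (-0.42 ± 0.09). Of 11 hypoxia and mitophagy genes 2 rose and 7 fell at 24 h. Lactate dehydrogenase Ldha rose by 1.08 ± 0.09 and Ldhb fell by -0.46 ± 0.07, and the mitophagy kinase gene Pink1 fell by -1.42 ± 0.12. All these lists were chosen with earlier results of these data known.

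Markers of cell types and of proliferation were counted in uterus too. The background at 24 h was 24.8% of all genes tested higher and 34.4% lower. At 24 h all 5 proliferation markers rose (summed intensity 354 to 537 in controls and 1799 to 2065 with EE), as did 6 of 9 epithelial markers, while 2 fell (1893 to 2776 and 3386 to 4961), and 4 of 6 leukocyte markers (807 to 996 and 942 to 2324). Of 8 smooth muscle markers 3 rose and 2 fell (8937 to 10864 and 9965 to 10692), and of 4 striated muscle markers 2 rose and 0 fell (1264 to 1878 and 1884 to 2380). Both of 2 endothelial markers fell (207 to 325 and 153 to 182). The background at 8 h was 28.7% of all genes tested higher and 35.5% lower. At that time 0 of 5 proliferation markers rose and 3 fell, with overlapping sums (434 to 982 and 287 to 621). Of 9 epithelial markers 5 rose and 1 fell at 8 h (1835 to 2825 and 2839 to 3211). At 24 h 1 of 3 adipocyte markers fell (459 to 737 and 321 to 388), as did the 1 brown adipocyte marker (68.7 to 161 and 24.4 to 66.1) and the 1 red cell marker measured (562 to 900 and 221 to 497). Signs of RNA quality moved too. The Actb control features differed between their 3′ and 5′ ends, on the log2 scale, by 0.57 ± 0.13 (SD, n = 5) in controls and 0.39 ± 0.17 with EE at 24 h, and 0.67 ± 0.27 and 0.32 ± 0.14 at 72 h, and the blank share at 8 h was 34.5% ± 0.84 in controls and 38.2% ± 0.97 with EE. Their part in the changes of the respiratory genes was not tested.

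The promoters of the genes on which these results turn are shown for the sites they hold, from RefSeq on build GRCr8, as 250 bases before to 50 after the start that RefSeq's promoter table uses. For Uqcrq and Sdhb that start lies inside the annotated span of the gene. They are the earliest gene to rise (Ndufaf4), the largest risers of complexes I and III (Ndufb6 and Uqcrq), a subunit of complex II that rose from 4 h on (Sdhb) and the gene that fell at every time from 4 h on (Cox7a2l). Capitals mark matches to any of 5 motifs, searched on both strands: the NRF-1 core CGCATGCG, the ETS or GABP site CCGGAAGT, the YY1 site ATGGCGGC, the ERR response element TCAAGGTCA and the estrogen response element GGTCANNNTGACC.
Ndufaf4, chr5:43401545-43401844, plus strand: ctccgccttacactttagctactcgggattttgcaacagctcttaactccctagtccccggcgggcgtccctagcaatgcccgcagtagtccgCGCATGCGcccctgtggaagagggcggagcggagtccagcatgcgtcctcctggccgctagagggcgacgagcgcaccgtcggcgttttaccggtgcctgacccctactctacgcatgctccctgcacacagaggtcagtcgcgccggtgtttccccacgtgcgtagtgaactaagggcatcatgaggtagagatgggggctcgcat
Ndufb6, chr5:60206103-60206402, minus strand: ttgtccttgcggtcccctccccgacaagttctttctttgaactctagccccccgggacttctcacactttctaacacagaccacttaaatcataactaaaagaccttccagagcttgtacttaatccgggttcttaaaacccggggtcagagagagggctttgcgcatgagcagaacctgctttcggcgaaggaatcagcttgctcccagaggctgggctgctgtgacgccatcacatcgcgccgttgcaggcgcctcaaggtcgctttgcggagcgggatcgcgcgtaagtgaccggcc
Uqcrq, chr10:38089929-38090228, minus strand: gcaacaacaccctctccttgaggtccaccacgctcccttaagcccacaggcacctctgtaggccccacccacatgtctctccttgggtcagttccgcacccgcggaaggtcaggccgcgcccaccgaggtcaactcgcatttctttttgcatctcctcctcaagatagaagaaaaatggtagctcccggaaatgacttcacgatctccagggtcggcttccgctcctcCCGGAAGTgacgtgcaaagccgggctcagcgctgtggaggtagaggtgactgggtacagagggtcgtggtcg
Sdhb, chr5:158547684-158547983, plus strand: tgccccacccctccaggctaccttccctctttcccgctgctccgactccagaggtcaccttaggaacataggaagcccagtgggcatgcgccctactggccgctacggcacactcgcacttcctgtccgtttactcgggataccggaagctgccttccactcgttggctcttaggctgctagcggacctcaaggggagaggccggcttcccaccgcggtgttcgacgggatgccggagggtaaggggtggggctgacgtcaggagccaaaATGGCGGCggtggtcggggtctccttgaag
Cox7a2l, chr6:16936324-16936623, plus strand: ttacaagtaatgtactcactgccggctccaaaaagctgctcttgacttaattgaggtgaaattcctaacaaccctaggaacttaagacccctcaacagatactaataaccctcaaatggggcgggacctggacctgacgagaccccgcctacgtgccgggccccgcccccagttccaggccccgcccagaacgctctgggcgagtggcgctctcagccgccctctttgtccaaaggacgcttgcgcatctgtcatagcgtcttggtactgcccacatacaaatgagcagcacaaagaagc
Ndufaf4 holds a match to the NRF-1 core and Uqcrq one to the ETS or GABP site. Sdhb holds the letters of the YY1 site only after the start, at position 21. Ndufb6 and Cox7a2l hold no match in these windows.

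RefSeq gave a promoter for 75 of the 82 genes. The NRF-1 core lay in 8 of them (10.7%, against 1.81% of 27457 promoters), the ETS or GABP site in 8 (10.7%, against 4.01%) and the YY1 site in 12 (16%, against 2.76%). Except in Ndufs1 (-32) and Sdhaf2 (-176), these YY1 matches lay after the start, with their first base at position 3 to 30. The motif begins with ATG, the letters of a start codon. In Sdhb the match at position 21 reads on in frame to the end of the printed window without a stop codon, as coding sequence would. Whether the matches after the start in the other genes belong to coding sequence rather than to a promoter site was not tested. The ERR response element lay in 2 (2.67%, against 0.412%), in Atp5mc3 and Sdhd. The full estrogen response element lay in 0 of 75 and in 7 of all promoters. Its half-site AGGTCA, which the ERR element contains, lay in 22 (29.3%, against 15.7%). Any of the first 3 motifs, with the YY1 matches after the start counted, lay in 25 (33.3%, against 7.95%). The median GC content was 56.3% in the 75 promoters and 52.3% in all, and its part in these shares was not tested. A match is a description of letters and not evidence of binding.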

How the data were processed

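Total RNA (5 µg) was labelled with biotin and hybridised to Affymetrix RAE230A arrays, per the labels' protocols. The deposited values are linear intensities per probe set on 100 arrays, and 37.2% of cells are blank. The sources used here do not say how values were summarised or scaled, or why cells are blank. Groups follow the sample titles.

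Values were taken as log2(intensity + 30.4), where the offset is the 10th percentile of all values, and blanks were left out. Each gene was represented by its probe set with the highest mean, blanks counted as 0. Testing needed 3 of 5 uterus values, or 2 of 3 pituitary values, in every group compared. Group means were fitted per tissue, or over both for tissue differences, with limma 3.58.1 variance moderation in R 4.3.3 and Benjamini-Hochberg adjustment over all genes tested (threshold 0.05). The procedure was tested on simulated data. Always named were 31 genes listed by role, of which 23 were measured, then the largest non-overlapping rises and falls of each comparison and the members with the smallest adjusted p of each other test. The text gives part of the 57 genes so named, and says so where another member is named. The members and all gene lists were chosen with earlier results of these data known. Alternatives were other scalings, offsets, filters and probe sets, fits of the compared groups alone, left-out arrays and a replicate block. Promoters are from RefSeq (GRCr8).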

Additional observations from a re-analysis of the deposited data

Results flagged for a closer look

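Single arrays stood apart from the rest of their group for several of the 18 genes shown array by array. The screen took 266 sets of 5 uterus arrays (each gene, and the median over all members, in each of 14 groups). Of these, 10 held an array whose gap to its nearest neighbour exceeded Dixon's 95% critical value. Chance gives about 1 in 20, and the number flagged was not above that rate. For Ndufb6 control array 6 read 154 at 2 h (others 251 to 266), EE array 9 read 399 at 2 h (others 221 to 264) and control array 53 read 223 at 28 h (others 170 to 185). Control array 53 also stood high for Cox6a1 at 28 h, at 589 (others 523 to 535). Sdha read 525 on control array 42 at 24 h (others 382 to 415) and 372 on control array 29 at 8 h (others 419 to 424). Sdhb read 351 on control array 50 at 28 h (others 266 to 287). Ndufaf4 read 44.5 on control array 66 at 48 h (others 63.1 to 68.1). Ndufab1 read 242 on control array 27 at 8 h (others 222 to 227), and Uqcrq read 815 on EE array 68 at 48 h (others 651 to 698).

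The EE effect differed among uterus times for 70 genes (81.6% of all genes tested passed too), and between 28 and 24 h for 1, Ndufaf4. It differed between uterus and pituitary for 8 genes at 4 h, 26 at 8 h, 51 at 24 h, 31 at 48 h and 16 at 72 h, each by a test of the difference itself. Of all genes tested, 15.2% and 18.6% were higher and lower at 4 h, 22.5% and 25.5% at 8 h, 17.8% and 22.3% at 24 h, 15% and 21.4% at 48 h and 14.5% and 24.1% at 72 h, so the members' share lay below that of all genes at 4, 8 and 72 h.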

How the results depend on the processing

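Of 3922 repeats of calls of named genes under other settings, 3711 kept direction and side of the threshold, 204 kept only the direction and 7 reversed, and of 940 repeats of counts and other summary results 848 did not move. The reversals were all under quantile normalization: Atp5mc3 at 48 h (-0.092, and -0.027 over genes with a value on every array) and 72 h (-0.13 and -0.029), Cox7c at 72 h (-0.025), and Cox6a1 (-0.041) and Sdhc (-0.011) at 8 h. The variant over genes with a value on every array was chosen after seeing the data. The cause was not tested. In uterus, quantile normalization gave 22 genes higher at 8 h, 35 higher and 4 lower at 48 h, and 20 higher and 15 lower at 72 h. The variant gave 4 lower at 48 h and 23 higher and 12 lower at 72 h, median centring gave 53 higher at 72 h, and no offset gave 2 lower at 48 h. In pituitary at 8 h the number higher was 0 under quantile normalization and with only the groups compared, and 1 with no offset, an offset of 100 or every probe set by itself. At 72 h it was 0 and 1 under the first 2 of these settings. Pituitary controls across times gave 0 under centring and quantile normalization. For the tissue difference, quantile normalization gave 3 higher at 4 h, 10 higher and 8 lower at 8 h, 12 higher at 48 h and 5 higher and 9 lower at 72 h. Centring gave 1 lower at 48 h and 25 higher and 1 lower at 72 h, and the variant 1 lower at 48 h. EE groups at 72 against 24 h gave 5 higher and 5 lower under centring and 0 and 28 under quantile normalization.

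Leaving out 1 array at a time gave 0 to 3 genes higher at 2 h and 1 to 3 lower at 48 h in uterus (3 without control array 66, 2 without EE array 69 or 72). It gave 0 to 4 higher and 0 to 3 lower at 8 h and 0 to 2 higher at 72 h in pituitary, and 0 to 1 for pituitary controls across times. The contrast of 28 against 24 h gave 1 to 2 higher and 0 to 1 lower, EE groups at 72 against 24 h gave 1 to 4 higher, and control groups 25 to 44 higher. The tissue difference gave 3 to 6 higher and 2 to 5 lower at 4 h (3 higher without pituitary control array 16 or EE array 21, 5 lower without control array 18), 1 to 2 lower at 24 h (2 without pituitary control array 38), 1 to 2 lower at 48 h (1 without pituitary control array 64 or EE array 69) and 3 to 6 lower at 72 h (3 without pituitary control array 73 or 75 or EE array 81 or 83). At 24 h in uterus 60 to 65 genes were higher and 2 lower.

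Uterus and pituitary arrays share title numbers. Over 27 pairs of the same number, treatment and time, 8 had a correlation of deviations above 0.1 (median 0.07). Differently numbered arrays were not correlated as a reference, so this cannot decide whether the numbers pair the samples. The main fit treated the arrays as independent. With the number as a replicate block, the tissue difference gave 11 higher at 8 h, 38 higher at 24 h, 19 higher and 1 lower at 48 h and 3 higher at 72 h, where the median difference turned from 0.08 to -0.0061. Signal over background could not be judged from these values, as the reason for the blanks is unknown.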
